A study of Mus musculus with 18 samples.

Results

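Integrin and laminin chain genes were followed in primary mouse astrocytes exposed to the inflammatory cytokines TNFα and IL-1β. The set was every gene of the authors' deposited table whose symbol is that of an integrin alpha chain, an integrin beta chain or a laminin alpha, beta or gamma chain. It held 28 of the 12205 genes of that table: 13 alpha chains, 5 beta chains and 10 laminin chains. A table of mouse gene names lists 37 such names, and the other 9 (Itgad, Itgae, Itgal, Itgam, Itgax, Itgb2, Itgb6, Itgb7 and Lama3) were not analysed here.

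Integrins are cell surface receptors made of an alpha and a beta chain that tie the extracellular matrix to the actin cytoskeleton. Laminins are cross-shaped trimers of an alpha, a beta and a gamma chain and are the main adhesive proteins of basement membranes. In the brain, astrocyte endfeet lie on the basement membrane around vessels and below the meninges, and they hold to it through integrins and dystroglycan.

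The groups were astrocytes treated for 24 h after 96 h of culture, astrocytes treated for 48 h after 72 h of culture, and astrocytes left untreated for 120 h, where the treatment was IL-1β at 0.25 ng/ml together with TNFα at 20 ng/ml. All cells came as thawed stocks from newborn wild-type C57BL mice of both sexes, pooled. Each lysate was divided between RNA-seq and ribosome profiling, which sequences the mRNA pieces shielded by ribosomes (footprints), and the 18 libraries made 6 groups of 3 batches. The table gives 1 log2 change against untreated cells per gene, time and measure, that is, for RNA, for footprints and for translation efficiency, which sets the footprints of a gene against its RNA.

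No values per library were at hand, so no change below could be set against the spread between batches, no test was made, and how deeply the libraries were sequenced is unknown. A gene is called higher or lower where its log2 change is at least 1 or at most -1, a doubling or a halving of the level, and counts are read beside the share of all genes past the same limit. Both times share the same untreated libraries. In these bulk samples fewer cells of a type and less RNA per cell cannot be told apart.

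At 24 h the RNA of 3 of the 28 genes was higher and that of 9 was lower. This was 10.7% and 32.1% of the set, beside 7.54% and 9.55% of all genes. At 48 h 4 genes were higher and 9 lower in RNA, beside 8.11% and 10.3% of all genes. In footprints 5 genes were higher and 7 lower at 24 h, where all genes gave 7.87% and 8.7%. At 48 h 4 were higher and 7 lower in footprints, and all genes gave 8.13% and 8.71%. The laminins lay on both sides of 0, with a median RNA change at 24 h of 0.20 and a mean of 0.52. That mean includes Lamb3 at 4.62, where the next highest laminin, Lama4, was at 1.78. The alpha chains had a median of -0.37 and the beta chains of -0.42. The median of all genes was -0.03.

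**Figure D1:**
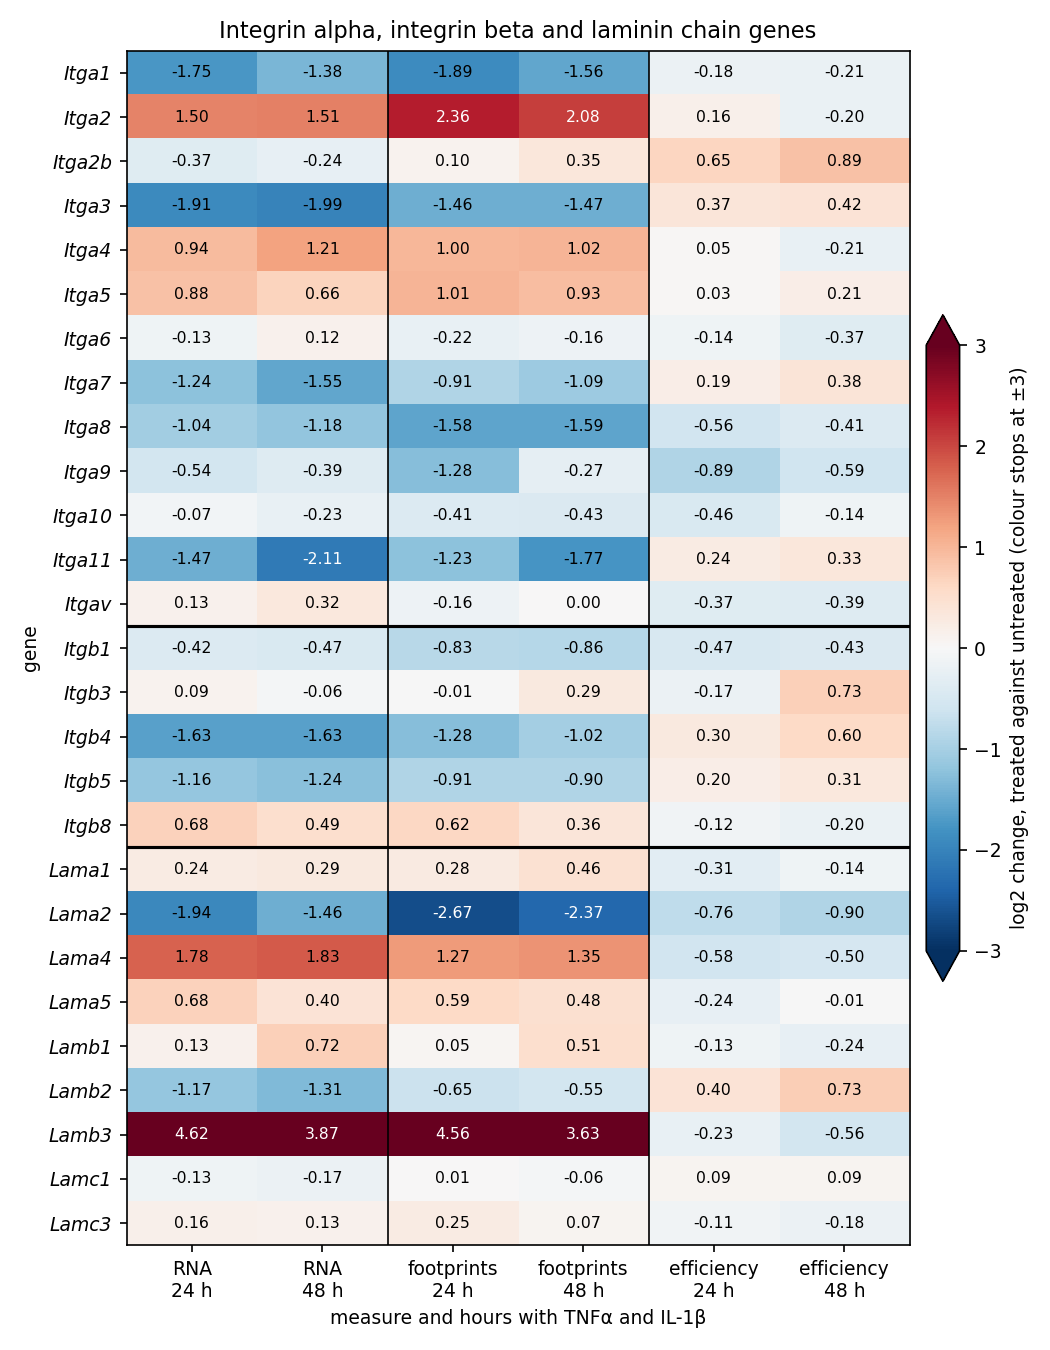
Log2 change of 27 integrin alpha chain, integrin beta chain and laminin genes (rows, top to bottom) against untreated cells, in RNA, footprints and translation efficiency after 24 h and 48 h (columns); each cell prints its value, and the colour stops at 3 and -3. Lamb3 is the darkest red row, Itga2 and Lama4 are red in all RNA and footprint columns, and Lama2 in footprints at 24 h is the lowest cell, at -2.67.

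Among the laminin alpha chains, Lama2 and Lama4 lay at opposite ends. Lama2, the alpha chain of the laminin of muscle and of glial basement membranes, was at -1.94 in RNA at 24 h and -1.46 at 48 h in the authors' deposited table. Its footprints were at -2.67 at 24 h and -2.37 at 48 h in the authors' deposited table, which is a 6.35-fold lower footprint level at 24 h. Its footprint value at that time ranked 115 from the bottom among the 12205 genes. Lama4, whose chain is known from vessel walls, stood at 1.78 and 1.83 in RNA at 24 h and 48 h in the authors' deposited table, and at 1.27 and 1.35 in footprints. Lama2 was thus lower and Lama4 higher by more than 1 in each of these comparisons.

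The other laminin alpha chains stayed under the limit. Lama5, the alpha chain of many epithelial and vascular basement membranes, had RNA changes of 0.68 at 24 h and 0.40 at 48 h and footprint changes of 0.59 and 0.48 in the authors' deposited table. Lama1, the alpha chain of early embryonic basement membranes, had 0.24 and 0.29 in RNA and 0.28 and 0.46 for footprints in the authors' deposited table. All of these values were above 0.

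Lamb3 had the largest change of all 28 genes. Its product is the beta chain of the laminin that anchors the epidermis. In the authors' deposited table its RNA was at 4.62 at 24 h and 3.87 at 48 h, and its footprints at 4.56 and 3.63. These are 24.5-fold and 14.7-fold higher RNA levels and 23.5-fold and 12.4-fold higher footprint levels. In RNA at 24 h Lamb3 ranked 143 from the top among the 12205 genes, and in footprints 122. The alpha chain of that laminin, Lama3, is among the genes not analysed here.

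Because Lamb3 stood so far from the other laminins, the stretches before its listed starts were read from RefSeq on GRCm38.p6. They were searched for letters that fit the binding motifs of factors known to act after TNFα and IL-1β. Lamb3 lies on chromosome 1 from 193294353 to 193343878, and 2 starts are listed inside that span. The bases before 193294353, where the span begins, were not read. The 250 bases before the first of them (chr1:193301744-193301993, plus strand) held no match to the kappa-B consensus, the site bound by NF-kB, or to the AP-1 motif TGANTCA on either strand and are therefore printed without capitals. Before the second start a kappa-B match lay 226 to 217 bases upstream, shown in capitals within chr1:193302007-193302036. That stretch is downstream of the first listed start.
Lamb3, first start: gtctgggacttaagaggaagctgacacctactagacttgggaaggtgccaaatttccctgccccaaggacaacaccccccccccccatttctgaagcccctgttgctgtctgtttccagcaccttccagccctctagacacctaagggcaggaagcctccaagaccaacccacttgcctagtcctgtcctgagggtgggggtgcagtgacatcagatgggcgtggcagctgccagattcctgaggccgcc
Lamb3, match before the second start: cacccagccaGGGAGTCTCCagaggtgagg
Of the 28 genes, 19 had a promoter in the RefSeq table, with 21 windows of 250 bases in all. Lamb3 alone had a kappa-B match, 5.26% of the 19 genes, counted by gene, beside 3.9% of the 32851 windows of all mouse genes, counted by window. AP-1 letters were found in 0 of the 21 windows, beside 6.75% of all windows. The share with a kappa-B match is near that of all promoters, and a match in letters is no measure of binding.

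Of the laminin beta chains, Lamb2 went the other way from Lamb3. Lamb2, a beta chain of the neuromuscular synapse, the kidney filter and the pial surface, was at -1.17 and -1.31 in RNA at 24 h and 48 h in the authors' deposited table, and at -0.65 and -0.55 in footprints, under the limit. Lamb1, a widely made beta chain, was at 0.13 and 0.72 in RNA and at 0.05 and 0.51 for footprints in the authors' deposited table. The 3 beta chains therefore gave a lower, a nearly level and a strongly higher RNA value at 24 h.

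Lamc1 and Lamc3 lay near 0. Lamc1, the gamma chain of most laminins, was at -0.13 and -0.17 in RNA and at 0.01 and -0.06 for footprints in the authors' deposited table. Lamc3, a gamma chain known from retina and brain, was at 0.16 and 0.13 in RNA and at 0.25 and 0.07 for footprints in the authors' deposited table. None of these values was past the limit.

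The collagen-binding alpha chains, all partners of the beta 1 chain, split in direction. Itga1 was lower, at -1.75 in RNA and -1.89 in footprints at 24 h and at -1.38 and -1.56 at 48 h in the authors' deposited table. Itga2 was higher, at 1.5 in RNA and 2.36 in footprints at 24 h and at 1.51 and 2.08 at 48 h in the authors' deposited table. Itga11, the collagen receptor chain of fibroblasts, was lower, with -1.47 and -2.11 in RNA and -1.23 and -1.77 in footprints at 24 h and 48 h in the authors' deposited table. Itga10, known from cartilage, stayed at -0.07 and -0.23 in RNA and at -0.41 and -0.43 for footprints in the authors' deposited table. Itga2 was thus the one collagen receptor chain of the 4 with a value above 0.

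Itga2 and Itga1, whose values had opposite signs, are adjacent genes on chromosome 13 of GRCm38.p6. Itga2 spans 114833081 to 114932100 and Itga1 spans 114958079 to 115101964, both on the minus strand, with 25978 bp and no protein-coding gene between them. The gene of the ribosome rescue factor Pelo lies inside the span of Itga1 and was at -0.34 in RNA and -0.05 in footprints at 24 h in the authors' deposited table. The 250 bases before each start are shown to compare the pair, and neither stretch held a kappa-B or AP-1 match, so neither has capitals.
Itga2, chr13:114932101-114932350, minus strand: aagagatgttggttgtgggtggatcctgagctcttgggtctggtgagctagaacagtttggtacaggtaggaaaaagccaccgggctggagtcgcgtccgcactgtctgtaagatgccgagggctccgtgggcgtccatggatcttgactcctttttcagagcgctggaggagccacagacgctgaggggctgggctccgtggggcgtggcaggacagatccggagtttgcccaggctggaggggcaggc
Itga1, chr13:115101965-115102214, minus strand: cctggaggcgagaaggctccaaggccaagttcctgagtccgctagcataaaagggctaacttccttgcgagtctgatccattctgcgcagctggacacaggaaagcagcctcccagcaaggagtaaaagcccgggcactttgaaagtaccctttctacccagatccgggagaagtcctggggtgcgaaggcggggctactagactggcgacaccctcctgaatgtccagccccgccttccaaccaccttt
G and C made up 60.8% of the Itga2 stretch and 57.6% of the Itga1 stretch.

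The laminin-binding alpha chains were lower or near 0. Itga3, a receptor chain for laminins with alpha 3 or alpha 5 chains, was at -1.91 and -1.99 in RNA at 24 h and 48 h in the authors' deposited table, and at -1.46 and -1.47 in footprints. Its RNA level at 48 h was 3.98-fold lower than in untreated cells. Itga7, the laminin receptor chain of muscle, was at -1.24 and -1.55 in RNA and at -0.91 and -1.09 for footprints in the authors' deposited table. Itga6, which pairs with the beta 1 or beta 4 chain, was at -0.13 and 0.12 in RNA and at -0.22 and -0.16 for footprints in the authors' deposited table. Itga3 and Itga7 were lower by more than 1 in RNA at both times, and Itga6 was not.

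The alpha chains that bind ligands with the RGD tripeptide ranged from lower to nearly doubled. Itga8, a receptor chain for nephronectin, was at -1.04 and -1.18 in RNA and at -1.58 and -1.59 for footprints in the authors' deposited table. Itga5, the fibronectin receptor chain, was at 0.88 and 0.66 in RNA and at 1.01 and 0.93 for footprints in the authors' deposited table. Its footprint value at 24 h was only just past the limit. Itgav, the partner of several beta chains in binding vitronectin and latent TGF-beta, was at 0.13 and 0.32 in RNA and at -0.16 and 0.00041 for footprints in the authors' deposited table. Itga2b, the fibrinogen receptor chain of platelets, was at -0.37 and -0.24 in RNA and at 0.10 and 0.35 for footprints in the authors' deposited table. Of these 4 chains, Itga8 alone was past the limit in RNA.

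Itga4 and Itga9, which both bind VCAM1 and splice forms of fibronectin, differed. Itga4 was at 0.94 in RNA at 24 h and 1.21 at 48 h, with footprints at 0.999 and 1.02 in the authors' deposited table, so that the 24 h values lay just under the limit. Itga9, also a receptor chain for tenascin C, was at -0.54 and -0.39 in RNA in the authors' deposited table. Its footprints were at -1.28 at 24 h and -0.27 at 48 h in the authors' deposited table. Vcam1, a ligand of both chains, was at 4.66 in RNA and 4.18 in footprints at 24 h in the authors' deposited table.

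No beta chain was higher by 1 in RNA or footprints. Itgb4, which pairs with the alpha 6 chain in hemidesmosomes, was at -1.63 in RNA at both times and at -1.28 and -1.02 for footprints in the authors' deposited table. Itgb5, a partner of the alpha v chain in binding vitronectin, was at -1.16 and -1.24 in RNA and at -0.91 and -0.90 for footprints in the authors' deposited table. Both were past the limit in RNA at 24 h and 48 h, and in footprints Itgb4 alone was. Itgb1, the common partner of most alpha chains described here, was at -0.42 and -0.47 in RNA and at -0.83 and -0.86 for footprints in the authors' deposited table. Itgb8, the partner of the alpha v chain by which astrocytes activate latent TGF-beta, was at 0.68 and 0.49 in RNA and at 0.62 and 0.36 for footprints in the authors' deposited table. Itgb3, the partner of the alpha v and alpha IIb chains, was at 0.09 and -0.06 in RNA and at -0.01 and 0.29 for footprints in the authors' deposited table. Itgb5 was thus lower in RNA, and Itgb1, Itgb3 and Itgb8 were within the limit.

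**Figure D2:**
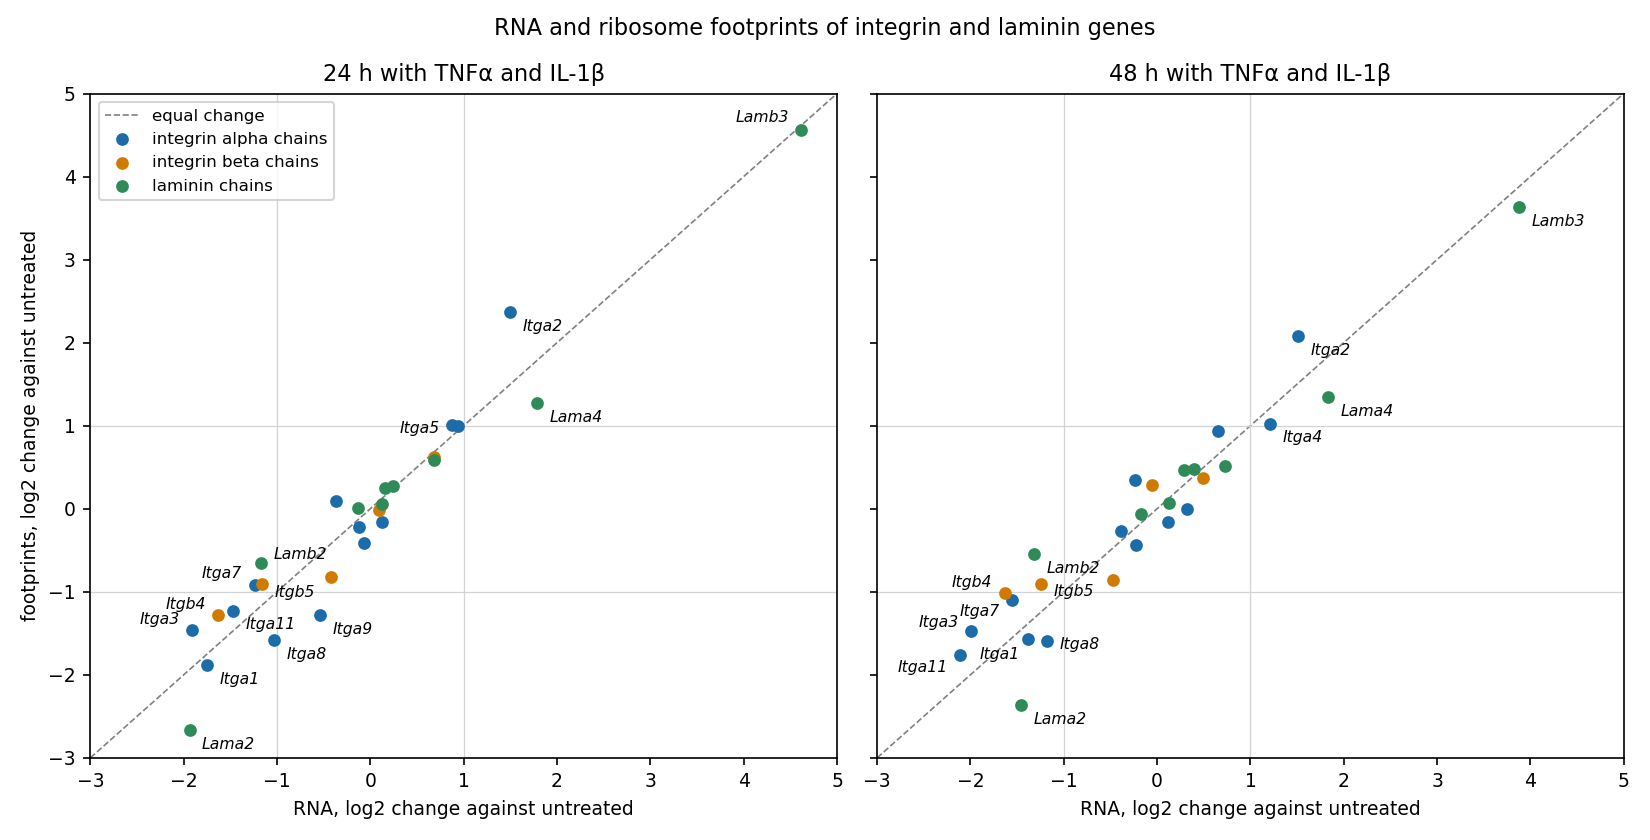
Footprint change (vertical axis, log2) against RNA change (horizontal axis, log2) of 27 genes after 24 h (left) and 48 h (right) with TNFα and IL-1β, each against untreated cells; the dashed line marks equal change, the grey lines mark 1 and -1, and genes past 1 in either measure are named. Lamb3 lies at the upper right near the line of equal change, Itga2 above it, and Lama2 below it in both panels.

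Changes in translation efficiency stayed within 1 for all 28 genes. At 24 h 0 genes were past the limit in either direction, beside 1.79% of all genes higher and 1.32% lower. At 48 h the count was again 0 either way, beside 2.85% higher and 1.71% lower. The values ran from -0.89 (Itga9) to 0.65 (Itga2b) at 24 h and from -0.90 (Lama2) to 0.89 (Itga2b) at 48 h in the authors' deposited table. The medians were -0.12 and -0.16, beside -0.03 and -0.05 for all genes. With footprint minus RNA change in place of the deposited value, Itga2 was highest at 24 h (0.87) and Lamb2 at 48 h (0.77).

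Each laminin alpha chain had a deposited translation efficiency below 0 at both times. Of all 12205 genes, 6441 were below 0 at 24 h and 6619 at 48 h. Lama2 was at -0.76 and -0.90, Lama4 at -0.58 and -0.50, Lama1 at -0.31 and -0.14 and Lama5 at -0.24 and -0.01 in the authors' deposited table. Taken as footprint minus RNA change, Lama1 was at 0.04 and 0.17 and Lama5 at -0.09 and 0.08, so the shared sign held only for the deposited values. Lamb2 was the laminin with the highest values, 0.40 at 24 h and 0.73 at 48 h in the authors' deposited table. Itgb1 was at -0.47 and -0.43 in the authors' deposited table, which goes with footprints lower than its RNA. Of the 9 genes lower in RNA at 24 h, 6 (Itga3, Itga7, Itga11, Itgb4, Itgb5 and Lamb2) had a translation efficiency above 0. That is 66.7%, beside 55.2% of the 1166 genes of the table that were lower in RNA. Translation efficiency holds the RNA value in its denominator, so the 2 measures are not independent.

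The 3 values of a gene did not always add up. The translation efficiency column lay within 0.1 of the footprint minus the RNA change in 18 of the 28 genes at 24 h and 20 at 48 h, or 64.3% and 71.4%, beside 79.5% and 78.0% of all genes. Itga2 was farthest at 24 h, with a footprint minus RNA difference of 0.87 beside a deposited translation efficiency of 0.16, and at 48 h the same pair was 0.56 and -0.20. Itga9 at 48 h had a difference of 0.12 beside a translation efficiency of -0.59 in the authors' deposited table. Itgb3 at 48 h had 0.34 beside 0.73, after a translation efficiency of -0.17 at 24 h in the authors' deposited table. The sign also differed for Lama1 (0.04 beside -0.31 at 24 h and 0.17 beside -0.14 at 48 h). It differed for Lamc3 at 24 h (0.09 beside -0.11) and for Lama5 at 48 h (0.08 beside -0.01). In size, Itga2b had 0.47 beside 0.65 at 24 h and 0.58 beside 0.89 at 48 h, and Lamb3 had -0.24 beside -0.56 at 48 h. For these genes the direction or size of a change in translation efficiency depends on which value is used.

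**Figure D3:**
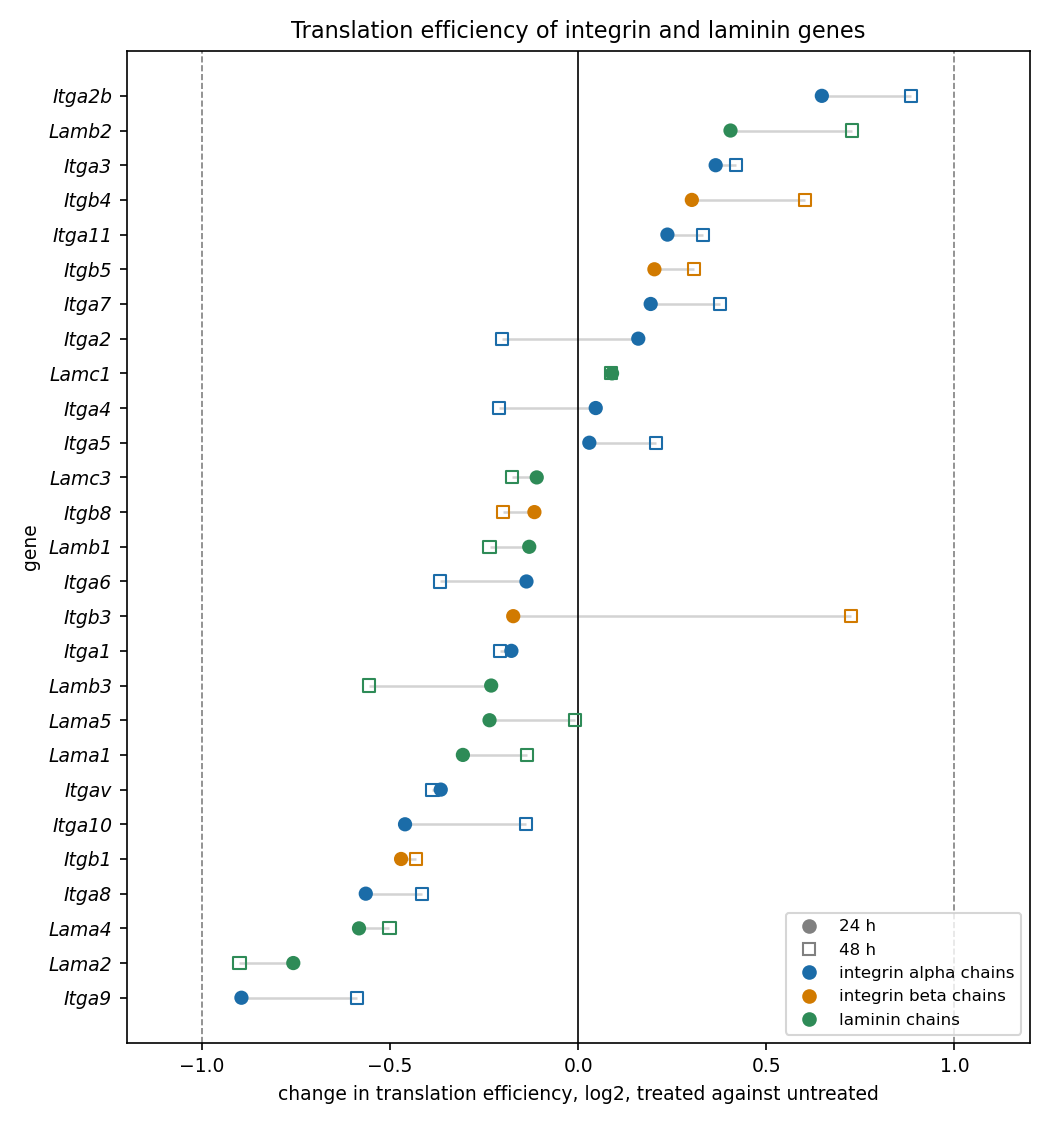
Change in translation efficiency (horizontal axis, log2, against untreated cells) of 27 genes (vertical axis, ordered by the 24 h value) after 24 h (filled circles) and 48 h (open squares), with dashed lines at 1 and -1. All points lie between the dashed lines, with Itga9 and Lama2 at the low end, Itga2b at the high end, and Itgb3 with the widest gap between times.

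Values at 48 h were set beside those at 24 h for each gene. In RNA 0 of 28 genes differed by at least 1 either way, beside 1.56% of all genes, and in footprints 1 did, beside 1.79%. That gene was Itga9, with a footprint difference (48 h minus 24 h) of 1.01. The lowest differences were those of Lamb3, at -0.74 in RNA and -0.92 in footprints, so its change was smaller at 48 h. Lamb1 had the highest RNA difference, 0.60, and Itga11 stood at -0.64 in RNA and -0.54 in footprints. Lama2 differed by 0.48 and 0.30, and its values remained lower than -1 at 48 h. The median RNA difference over the 28 genes was -0.05.

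Protein levels were not measured, but 30 genes whose products act with integrins inside the cell were read in the same way. In RNA at 24 h 0 of them were higher and 7 lower, with a median of -0.34, and in footprints 0 were higher and 3 lower, with a median of -0.05. The 7 genes were 23.3% of the list, beside 9.55% of all genes lower in RNA, and the 3 were 10.0%, near the 8.7% of all genes lower in footprints. Of all genes, 7.54% were higher in RNA and 7.87% in footprints. Lims2, an adaptor that binds integrin-linked kinase, was at -2.83 in RNA and -1.72 in footprints at 24 h in the authors' deposited table. Vcl (vinculin), which links talin to actin, was at -1.76 and -1.53, and the actin crosslinker gene Flna at -1.30 and -1.21 in the authors' deposited table. Highest in RNA were Apbb1ip (0.71), which brings the GTPase Rap1 to talin, Rap1b (0.56) and Rap1a (0.35) in the authors' deposited table. Translation efficiency had a median of 0.25 at 24 h in these genes, with 1 higher (3.33%, beside 1.79% of all genes) and 0 lower (beside 1.32%).

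Of 27 other genes of basement membranes and laminin receptors, 1 was higher and 5 were lower in RNA at 24 h, and 2 were higher and 5 lower in footprints. These were 3.7% and 18.5% in RNA, beside 7.54% and 9.55% of all genes, and 7.41% and 18.5% in footprints, beside 7.87% and 8.7%. Their RNA median was -0.24. Col18a1, a basement membrane collagen and the source of endostatin, was at 1.43 in RNA and 1.76 in footprints at 24 h in the authors' deposited table. Ntn1, a secreted relative of the laminins that guides axons, was at 0.84 in RNA and 0.31 in footprints, and Agrn, which joins laminin to dystroglycan, at 0.66 and 1.03 in the authors' deposited table. The lowest were the collagen chain genes Col4a4 (-3.33) and Col4a3 (-3.25) and the netrin gene Ntn4 (-1.99), whose product binds laminin gamma chains, in RNA at 24 h in the authors' deposited table.

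Of 31 integrin ligands other than laminins, 7 were higher and 10 lower in RNA at 24 h, and 8 were higher and 8 lower in footprints. These were 22.6% and 32.3% in RNA, beside 7.54% and 9.55% of all genes, and 25.8% each way in footprints, beside 7.87% and 8.7%. The RNA median was -0.28. The highest were the cell adhesion molecules Madcam1 (7.95), Vcam1 (4.66) and Icam1 (3.66), which leukocyte integrins bind, in RNA in the authors' deposited table. The lowest were Vtn (-2.81), which codes for vitronectin, the matricellular protein gene Ctgf (-2.40) and Jam2 (-2.19), a junction protein gene, in RNA in the authors' deposited table.

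**Figure D4:**
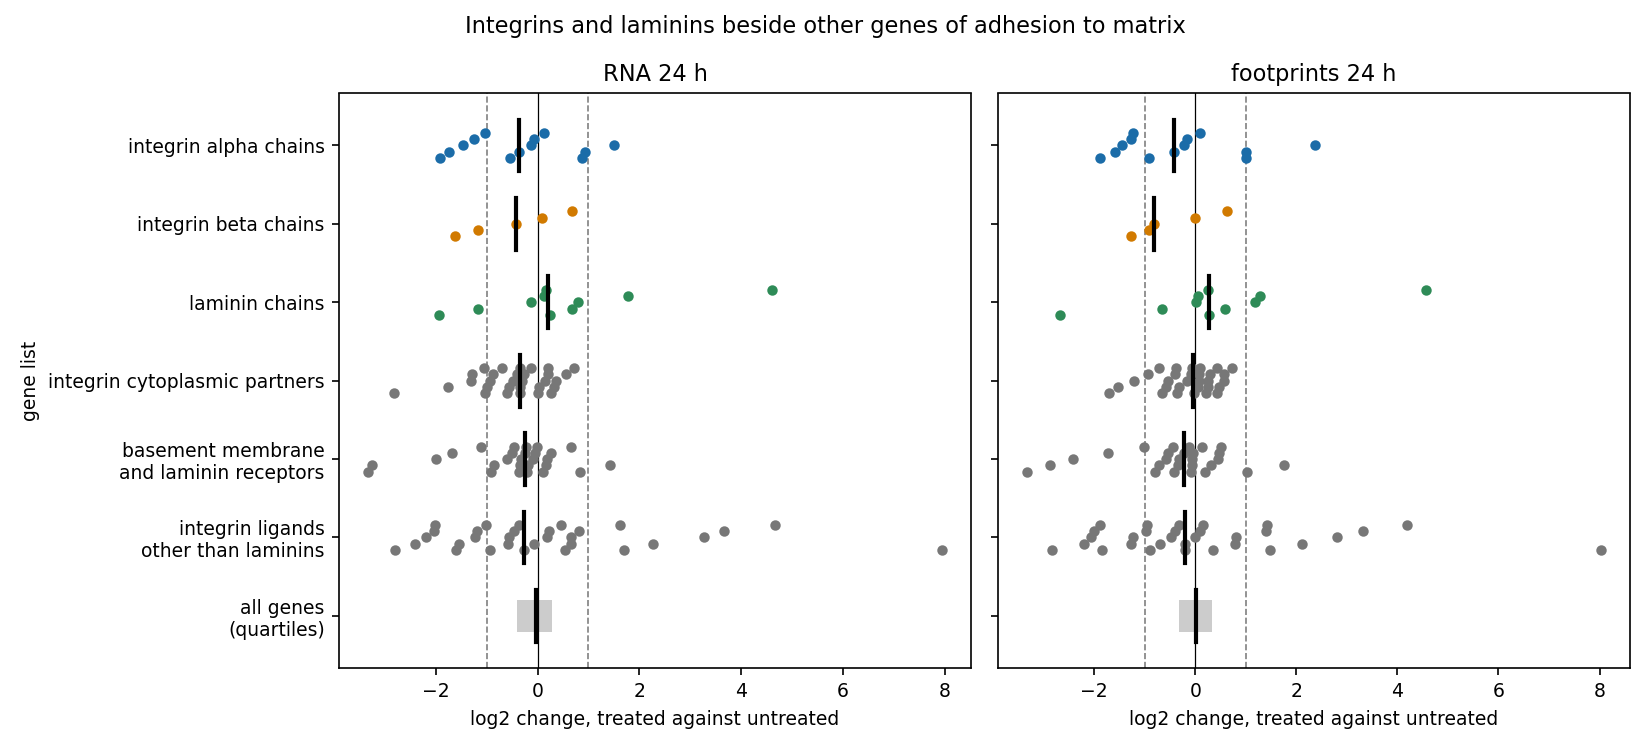
Log2 change at 24 h against untreated cells (horizontal axis) in RNA (left) and footprints (right) for each gene (points) of the integrin alpha, integrin beta and laminin chains and of 3 lists of other adhesion genes (rows), with black bars at the medians and, for all genes of the table, a grey bar over the quartiles; points are spread vertically only to be seen. The laminins have a median above 0 (0.20 in RNA), the other 5 lists have RNA medians from -0.42 to -0.24, and the farthest point is Madcam1, at 7.95 in RNA and 8.03 in footprints.

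Laminins and integrins are also made by other cells of the brain, so markers of these cells were read in the same table, which gives changes and no levels. The counts that follow stand beside 7.54% of all genes higher and 9.55% lower in RNA at 24 h, and 8.11% and 10.3% at 48 h. Fibroblast and mural cell markers (13 of 15 names measured) had 4 higher and 2 lower in RNA at 24 h, and ranged from -3.01 (Acta2) to 4.16 (Dcn) in the authors' deposited table. At 48 h 4 were higher and 3 lower, from -4.67 (Vtn) to 5.73 (Dcn) in the authors' deposited table. Endothelial markers (6 of 12) had 1 higher and 3 lower, from -3.54 (Kdr) to 1.77 (Flt1) in the authors' deposited table, and at 48 h 1 was higher and 2 were lower. Microglia and macrophage markers (6 of 20) had 3 higher and 0 lower, with 4.43 for Mpeg1 as the highest value in the authors' deposited table. At 48 h 3 were again higher and 0 lower, and Adgre1 was at 7.55 in RNA, against 0.57 at 24 h, in the authors' deposited table. Its footprints were at 0.73 at 24 h and 4.62 at 48 h. Its deposited translation efficiency at 24 h was -1.79, so the values of Adgre1 did not add up at that time. Oligodendrocyte lineage markers (6 of 12) had 2 higher and 2 lower, from -1.54 to 1.90, and neuron markers (5 of 11) had 0 higher and 2 lower, from -2.49 to 0.17, in the authors' deposited table. At 48 h both lists gave the same counts. All 12 astrocyte markers were measured, and 2 were higher and 5 lower, with a median of -0.78. At 48 h 1 was higher and 6 were lower, with a median of -0.88. Without levels, whether a marker was near 0 could not be read. The part of these cells in the changes of Lama4, Lamb3, Itga2 and the lower genes was not tested.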

How the data were processed

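RNA-seq and ribosome profiling were done on astrocytes treated for 24 h, treated for 48 h and untreated, in 3 batches each. TopHat2, featureCounts and the mm10 build are named, without versions, in the submitters' processing notes. Normalization, the combining of batches and strandedness of the counting were not given in the sources used here. Per the file headers, the authors deposited log2 fold changes of treated over untreated cells, 6 columns for 12205 genes. No scale is named for translation efficiency. Its values were taken as log2 because most equal footprint minus RNA change within 0.1. Sheets on other gene sets were not used.

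Genes were picked by symbol. All 28 enter the counts and medians, and some values are not reported here. Changes past 1 were counted, medians taken and times subtracted with pandas 2.3.3 in Python 3.11.15. The counting was tested on simulated data. The plan held a test for values per library. The table has none, so no test, error or depth could be given, and the precision is unknown. The genes, lists and limits were chosen with earlier results of these data known. From each of the 3 lists of other adhesion genes the 3 highest and 3 lowest in RNA at 24 h are named, and medians cover the genes measured. Pelo and the marker genes named were chosen after their values were seen.

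Positions and promoters came from RefSeq on GRCm38.p6, the assembly behind mm10. The span of 15 of the 28 genes overlaps another annotated gene. For Itga1, Itga4, Itga7 and Itgb4 that gene is protein-coding, and reads there may be shared.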

Additional observations from a re-analysis of the deposited data

How the results depend on the processing

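With a limit of 0.5 in place of 1, 8 genes were higher in RNA at 24 h, beside 14.8% of all genes. In footprints 8 were then higher and 11 lower at 24 h (17.2% and 18.0% of all genes) and 7 were higher at 48 h (17.7%). In translation efficiency 1 was higher and 4 lower at 24 h (12% and 9.96% of all genes), and 4 and 4 at 48 h (14.5% and 11.9%). Between times 3 genes differed in RNA (6.76%) and 3 in footprints (8.61%). With a limit of 1.5, 4 genes were lower in RNA at 24 h and 4 at 48 h (4.72% and 5.1% of all genes). In footprints 2 were then higher and 3 lower at 24 h (5.07% and 4.63%), 2 were higher and 4 lower at 48 h (5.2% and 4.74%), and 0 differed between times (0.672%). Without Itga2 and Itga9, whose values did not add up within 0.5, 0 genes differed between times in footprints. The other 56 recounts were within 1.5 times of the count given. These include all recounts after centring on the median of all genes, which lay within 0.05 of 0, all without the one integrin mainly of blood cells, Itga2b, and all with translation efficiency taken as footprint minus RNA. The mean of the alpha chains in translation efficiency at 24 h was -0.0708, where the median was 0.03. Of the other class medians, 9 had a mean at least 0.1 away, among them the laminins in footprints at 24 h (mean 0.49, median 0.27), the alpha chains in RNA at 48 h (-0.41 and -0.24) and the beta chains in footprints at 48 h (-0.43 and -0.86). No paired analysis was possible because the table holds 1 value per gene and comparison, and for the same reason no batch could be left out. Genes near the limit, such as Itga4, Itga5, Itga8 and Itgb4, can pass it or fall under it with errors that are unknown here.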
